A study of Homo sapiens with 47 samples.

Results

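The desmosome and plakoglobin genes are 8 genes chosen by name, JUP, DSP, DSG2, DSC2, PKP2, PKP3, PKP4 and PERP, among the 25739 genes measured in single cells of the triple-negative breast cancer line MDA-MB-231-LM2. LM2 is an established human cell line that forms tumors in the mouse mammary gland and spreads to the lung. GFP-tagged LM2 cells were injected into the mammary fat pad of NOD/SCID gamma (NSG) mice 6 to 8 weeks old, which lack most lymphocyte function, and blood was drawn from the right ventricle once tumors had grown. Circulating tumor cells (CTC) were enriched from that blood by size, cells positive for CD45 were set aside, and GFP-positive cells were picked 1 by 1. The 2 groups compared here are 37 such CTCs, with 2 from mouse 5541, 4 from mouse 5542, 10 from mouse 5545, 17 from mouse 5546 and 4 from mouse 5549, and 6 LM2 cells picked from culture. Both groups come from 1 line carrying no other labelled genotype or treatment, and all libraries carry the same batch label. Each cell gave 1 SMARTseq2 library, a full-length poly(A) cDNA protocol without molecular identifiers. Libraries are named by mouse and cell (5545-1), and within mouse 5546 also by a letter, c in 9 and s in 8 libraries, whose meaning the labels do not give.

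Desmosomes are spot-like junctions that couple the intermediate filaments of neighboring cells. Desmosomal cadherins (desmogleins and desmocollins) bridge the gap between cells, the armadillo proteins plakoglobin and plakophilins bind the cadherin tails inside the cell, and desmoplakin ties these plaques to keratin or vimentin. Plakoglobin also takes part in adherens junctions and has been linked to clusters of CTCs in breast cancer.

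Values are normalized counts, which the authors made by dividing the reads of a gene by a size factor estimated for that cell, and detection means at least 1 read. Reads on genes ranged from 469614 to 2041333 per CTC (median 1257540) and from 776949 to 1186197 per cultured cell (median 911310). Genes detected per cell were counted, here and below, among the 14594 genes with a read in at least 5 of the 43 cells. Between 2227 and 11010 of them were detected per CTC and between 7226 and 12271 per cultured cell. The LM2 markers VIM, CD44 and SPARC summed to 3433 to 22069 in CTCs and 5544 to 7447 in cultured cells. VIM and CD44 had reads in 37 CTCs and 6 cultured cells, and SPARC in 35 and 6. Most of the sum was VIM, with CTC means of 8972 for VIM, 397 for CD44 and 189 for SPARC. The epithelial markers differed in direction. CDH1 had reads in 1 CTC and ESRP1 in 2, and neither had a read in culture. KRT19 had reads in 31 CTCs and 6 cultured cells, with means of 420 and 71.8. EPCAM had reads in 8 CTCs and 5 cultured cells, with means of 5.25 and 40.4. CLDN7 had reads in 25 and 4, with means of 29.7 and 25.5. Erythroid markers summed to 0 to 12509 in CTCs and to 0 in all 6 cultured cells, with 3 of 5 listed genes measured and HBB at a mean of 1482. Leukocyte markers summed to 0 to 433 in CTCs and 17.8 to 115 in culture, and platelet markers to 0 to 77.3 and 0 to 3.23. The leukocyte sum of the culture was mostly ITGB2, at a mean of 48.9 with reads in 6 cultured cells and 7 CTCs. PTPRC, the gene of CD45, had reads in 11 CTCs and 0 cultured cells, CD14 in 11 and 1, and LYZ in 12 and 1. A value of 0 in a CTC allows up to 3 reads, which is 0.972 to 6.36 normalized counts depending on the cell, and intervals and this limit cover counting error only.

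Short stretches upstream of the gene start are shown for 3 of the genes, the broadly detected DSG2 and PERP, and PKP4. In normalized counts PKP4 had the mean log2 ratio of CTCs to culture farthest from 0 among the 8. RefSeq sequences (GRCh38.p14) were matched for 6 of the 8 genes, with 9 entries in all. Capitals mark CAGGTG or its reverse complement CACCTG, the E-box bound by factors such as ZEB1 and SNAI2, searched on both strands in the 250 bases before the start.
DSG2, chr18:31497927-31498176, plus strand: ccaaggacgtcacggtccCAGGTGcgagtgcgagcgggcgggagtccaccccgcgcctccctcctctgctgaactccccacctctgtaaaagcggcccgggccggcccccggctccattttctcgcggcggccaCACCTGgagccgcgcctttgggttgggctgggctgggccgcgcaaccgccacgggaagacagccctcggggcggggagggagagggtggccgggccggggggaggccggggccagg
PERP, chr6:138107420-138107669, minus strand: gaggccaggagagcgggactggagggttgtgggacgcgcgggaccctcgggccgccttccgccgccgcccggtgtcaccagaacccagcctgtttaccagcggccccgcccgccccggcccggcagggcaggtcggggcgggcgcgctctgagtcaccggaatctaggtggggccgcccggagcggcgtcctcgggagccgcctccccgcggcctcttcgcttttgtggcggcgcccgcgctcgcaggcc
PKP4, chr2:158456754-158456951, plus strand: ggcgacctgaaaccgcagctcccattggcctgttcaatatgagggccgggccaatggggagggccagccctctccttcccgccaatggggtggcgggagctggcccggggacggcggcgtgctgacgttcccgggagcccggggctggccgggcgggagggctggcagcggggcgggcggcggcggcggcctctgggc
The motif was in 4 of the 9 entries, 1 each of JUP, DSP, DSG2 and DSC2, and in 17.5% of all 35116 promoters of the same length. The DSG2 window held 2 matches, while the windows of PERP and PKP4 held 0. Bases of the PKP4 window that lie in an exon of CCDC148, 52 in number, are not printed but were searched. A match is a description of letters, and no binding was measured.

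Detection of the 8 genes ranged from nearly all CTCs to under 50% of them. PERP, a tetraspan membrane protein needed for desmosome assembly in stratified epithelia, had a read in 35 of 37 CTCs (94.6%, exact 95% binomial interval 81.8% to 99.3%). JUP, which encodes plakoglobin, was detected in 27 CTCs (73.0%, 55.9% to 86.2%). DSG2, the desmoglein of simple epithelia, was detected in 26 (70.3%, 53.0% to 84.1%). The remaining genes followed with overlapping intervals, PKP2 in 23, DSP in 21, PKP4 in 19, PKP3 in 17 and DSC2 in 15 CTCs. In culture, DSG2 and PERP were detected in 6 of 6 cells, DSP, PKP2, PKP3 and PKP4 in 5, and JUP and DSC2 in 4. With 6 cells the intervals of the culture were wide, 54.1% to 100% for DSG2 and PERP, 35.9% to 99.6% for DSP and 22.3% to 95.7% for JUP. They are too wide to tell the shares of the groups apart. After each cell was thinned to 469614 reads, the counts in CTCs were 35 for PERP, 27 for JUP, 25 for DSG2, 20 for DSP and PKP2, 18 for PKP4, 15 for PKP3 and 14 for DSC2.

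**Figure D1:**
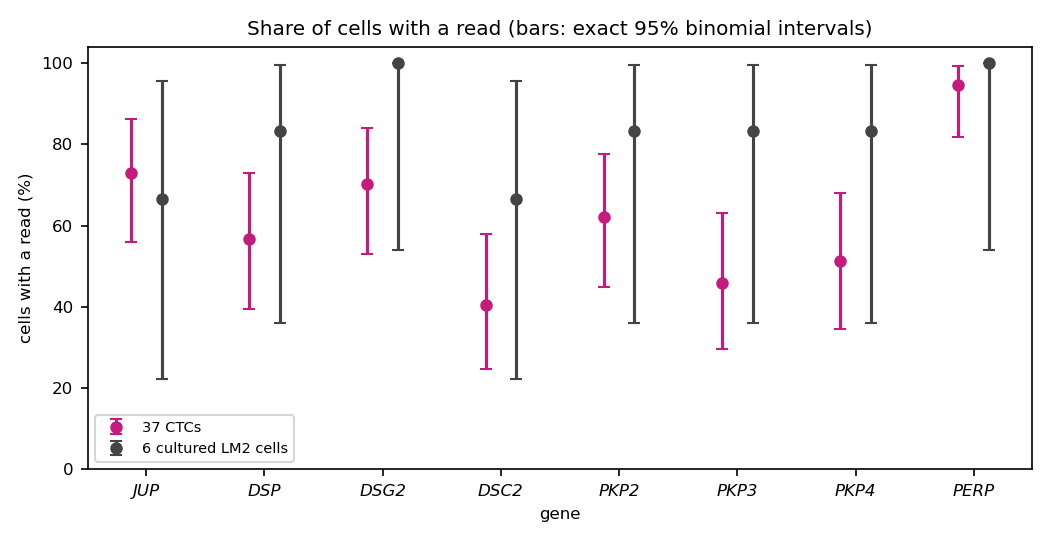
Share of cells with at least 1 read (percent, y axis) of each of the 8 genes (x axis) in 37 CTCs and 6 cultured LM2 cells, with exact 95% binomial intervals as bars. PERP was highest in CTCs at 94.6% and DSC2 lowest at 40.5%, and the intervals of the 6 cultured cells were wide.

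Levels between genes were compared per kilobase of exon length. In CTCs, PERP had the highest mean at 21.2 ± 6.73 normalized counts per kb (SD, n = 5 mouse means), followed by JUP at 10.7 ± 16.2 and DSG2 at 4.67 ± 3.09. PKP3 (2.43 ± 1.74), PKP2 (1.82 ± 2.87), DSP (0.848 ± 0.615), PKP4 (0.745 ± 0.451) and DSC2 (0.731 ± 0.751) came below them. PERP was above JUP in 4 of 5 mice and JUP above DSG2 in 3 of 5. No gene was above its neighbor in this order in all 5 mice, so neighboring levels did not differ beyond their spread. In the culture, PERP was also first at 38.5 ± 19.4 (SD over 6 cells of 1 culture), followed by DSG2 at 8.02 ± 3.25 and PKP4 at 5.57 ± 4.53, with JUP seventh in order at 2.22 ± 2.18 and DSC2 last at 0.254 ± 0.295.

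The desmosomal cadherins differed from each other in how widely they were expressed. DSG2 (ENSG00000046604, GRCh38 chr18:31498177-31549008, plus strand) was at 12.9 and 123 in the CTCs of mouse 5541, at 0, 0.531, 3.78 and 77.9 in mouse 5542, and at 0, 11.1, 59.998 and 259 in mouse 5549. It ranged from 0 to 85.7 (median 33.6) in mouse 5545 and from 0 to 91.4 (median 6.28) in mouse 5546. Cultured cells held 37.6 to 129 with a median of 75.9. Of the 37 CTCs, 1 (5549-2) was above every cultured cell, 11 had no read, and no cultured cell was at 0.

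DSC2 (ENSG00000134755, chr18:31058840-31102522, minus strand), a desmocollin that pairs with DSG2, was the gene of the 8 with most CTCs at 0, 22 of 37. Mouse means were 22.9 in 5541, 8.09 in 5542, 13.3 in 5545, 1.39 in 5546 and 0 in 5549, against 3.18 ± 3.69 (SD, n = 6 cells) in culture. Each of the 15 CTCs with a DSC2 read also had a DSG2 read. All 4 CTCs of mouse 5549 were at 0, where 3 reads per library would be worth 2.52. In cultured cells 3 reads were worth 3.56 to 5.97, so the culture mean was itself below that limit and no fold is given.

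JUP (ENSG00000173801, chr17:41754604-41786931, minus strand) had the widest range of mouse means in normalized counts, 7.59 to 195. The CTCs of mouse 5541 were at 7.88 and 383, those of mouse 5542 at 0, 1.38, 13.5 and 23.4, and those of mouse 5549 at 0, 0, 1.12 and 29.3. In mouse 5545 the range was 0 to 177 (median 16.4), and in mouse 5546 it was 0 to 126 (median 5.61). Cultured cells had 0 to 24.1 with a median of 9.51. Most CTCs lay within the range of the culture, and 10 of 37 lay above it. The 2 highest CTCs, 5541-5 and 5545-1, held 50% of the JUP total of all 37, and 5541-5 alone held 34.2%. The mean of mouse means was 52.8 ± 80.2 (SD, n = 5) and 15.3 without 5541-5, against 11.0 ± 10.8 in culture. KRT19, the simple-epithelial keratin that led the epithelial markers, was at 2047 in 5541-5 and 2745 in 5545-1, the 2 highest values of any CTC. EPCAM and CLDN7 were both at 0 in 5541-5, and at 72.1 and 46.7 in 5545-1. The next highest KRT19 value was 1493 in 5545-3, where JUP was at 17.6. Over all 37 CTCs JUP had a Spearman's ρ of 0.13 with the summed epithelial markers. CDH1 and ESRP1 were near 0 in the series, and the part of KRT19-rich cells in the JUP mean was not tested.

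The plakophilins, which recruit desmoplakin to the plaque, each had a pattern of their own. PKP2 (ENSG00000057294, chr12:32790745-32896798, minus strand) was at 0 and 2.81 in mouse 5541, at 0, 0, 2.12 and 27.7 in mouse 5542, and at 0, 0, 0.561 and 15.8 in mouse 5549. It ranged from 0 to 39.7 (median 1.06) in mouse 5545 and from 0 to 468 (median 9.54) in mouse 5546, with 0 to 43.8 (median 28.2) in culture. Mouse 5546 therefore stood above the other mice, with a mean of 71.3 against 1.41 to 9.43. Its highest CTCs were 5546-s9 at 468 (869 reads), 5546-s5 at 287, 5546-c7 at 110 and 5546-s8 at 101. Fewer than 5000 genes were detected in 5546-s9, 5546-s5 and 5546-s7, with 4225, 4737 and 4728, and their mitochondrial shares were 22.7%, 5.02% and 23.9% against a CTC median of 7.07%. Without those 3 libraries the mouse mean of PKP2 was 26.7, and with the 9 libraries of letter c alone it was 30.2, still above the other mice. The part of low gene number in the high PKP2 values was not tested.

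PKP3 (ENSG00000184363, chr11:392614-404908, plus strand) was detected in 17 CTCs with a median of 0 and single high cells at 96.2 (5546-s8) and 45.8 (5542-4). Its mouse means of 1.90 to 18.6 spanned the culture mean of 8.65 ± 11.0. Both PKP2 and PKP3 were detected in 9 of 37 CTCs (24.3%, 11.8% to 41.2%) and at least 1 of them in 31 (83.8%, 68.0% to 93.8%).

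PKP4 (ENSG00000144283, chr2:158456952-158682879, plus strand), a plakophilin relative of the p120-catenin family found at both desmosomes and adherens junctions, was the lowest in CTCs relative to culture. The CTCs of mouse 5541 were both at 0, those of mouse 5542 at 0, 0, 7.51 and 28.6, and those of mouse 5549 at 0, 2.01, 18.1 and 22.4. Mouse 5545 ranged from 0 to 29.3 (median 4.91) and mouse 5546 from 0 to 24.8 (median 0). In culture, LM-10 was at 128, LM-3 at 69.7, LM-1 at 51.7, LM-P3 at 39.2, LM-P4 at 30.7 and LM-2 at 0. Cultured cells other than LM-2, 5 of 6, were above each of the 37 CTCs, a pattern looked for after the values were seen that 0.664% of all genes had. When cells were instead scaled to equal totals (CPM), 2 of 6 were, with the highest CTC at 47.01 and the culture from 0 to 95.2.

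DSP (ENSG00000096696, chr6:7541338-7586714, plus strand), desmoplakin, reached 156 in 5546-c4 and 87.0 in 5545-4, and 16 CTCs had no read. Mouse means ran from 3.66 in 5541 through 5.21 in 5549, 8.99 in 5542 and 16.1 in 5545 to 23.8 in 5546, all below the culture mean of 34.0 ± 35.9 but inside its range of 0 to 81.6. DSP-AS1, an antisense gene that overlaps DSP, had reads in 11 CTCs with up to 103, and because counting ignored strand, reads of the pair cannot be told apart. PERP (ENSG00000112378, chr6:138088505-138107419, minus strand) was the most even of the 8. Its mouse means were 106 in 5541, 65.7 in 5542, 126 in 5545, 57.5 in 5546 and 89.9 in 5549, and cultured cells ranged from 19.1 to 271 with a mean of 161 ± 81.5. Only 5546-s6 and 5549-6 had no PERP read.

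**Figure D2:**
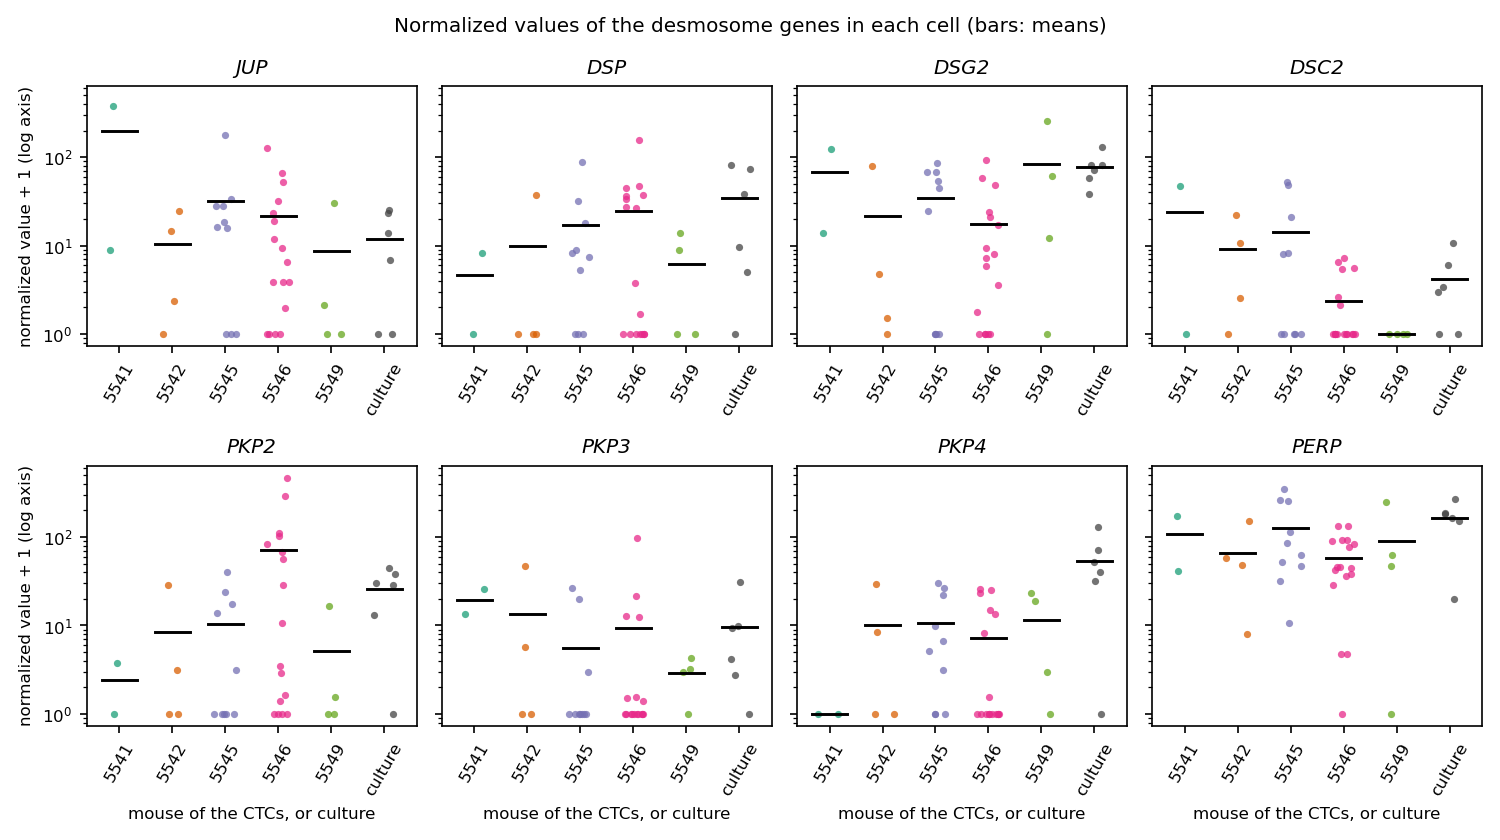
Normalized count plus 1 (log axis) of each gene in each cell, with CTCs grouped by mouse and the 6 cultured LM2 cells last, and the group mean as a bar. JUP and PKP2 means were set by few cells in mice 5541 and 5546, and 5 of 6 cultured cells exceeded all CTCs in PKP4.

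The comparison of CTCs with culture asks how expression of this junction differed between tumor cells in the blood and the line they came from. PKP4 was the gene of the 8 that differed in 1 direction and by at least 4-fold in every mouse, at 7.11 ± 4.30 (SD, n = 5 mice) against 53.1 ± 43.2 (SD, n = 6 cells). The rule of size, which is not a test because the culture is 1 sample, asked for a mouse mean at least 4-fold from the culture mean in each of the 5 mice after adding 1, with the larger mean at least 8. It was met by 1 of 8 genes in the lower direction, PKP4, and by 1.89% of all 25739 genes. Among genes with a culture mean of at least 8, it was met by 1 of 7 and by 5.59% of 8708. In the higher direction it was met by 0 of 8 genes and by 0.0155% of all. The log2 ratio of PKP4 lay between -2.22 and -2.91 in 4 mice. In mouse 5541, with both CTCs at 0, PKP4 was at least 30.4-fold lower with 3 reads per library as the floor. PKP4 no longer met the rule without LM-10, the cultured cell with the highest value, or with a pseudocount of 8. It also missed the rule after thinning to 469614 reads and in CPM. Both of these put cells on equal totals in place of the size factors, so thinning was not a check of depth alone. In CPM the log2 ratios of PKP4 were -5.30 to -1.28 and below 0 in all 5 mice.

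JUP, PKP2, DSC2, DSG2 and PKP3 were above culture in some mice and below it in others. JUP had log2 ratios of 4.04 in mouse 5541, 1.43 in 5545, 0.85 in 5546, -0.18 in 5542 and -0.48 in 5549. PKP2 was above culture in mouse 5546 alone, at 1.48, and at -1.31 to -3.42 in the others. DSC2 was above culture in mice 5541, 5542 and 5545, DSG2 in 5549 alone and PKP3 in 5541 and 5542. DSP and PERP were below culture in all 5 mice, with mean log2 ratios of -1.75 ± 1.00 and -0.91 ± 0.47 (SD, n = 5).

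These directions were read against the scale of the values. Normalized counts summed to 442223 to 1169170 per CTC and to 1162000 to 1783220 per cultured cell. The median log2 ratio was -0.97 over the 8 genes and -1.62 over the 8708 genes with a culture mean of at least 8. Every mouse mean was below the culture mean for DSP, PKP4 and PERP, 3 of the 7 genes with a culture mean of at least 8, and for 63.5% of all such genes. Over all 25739 genes this share was 34.0%, with a median log2 ratio of -0.24, and it was 37.5% of the 8 genes. A filter on the culture mean alone picks genes high in culture, so the figures for the 8708 genes lean below culture in advance. In CPM the median of those 8708 genes rose by 0.70 to -0.92 and that of the 8 genes became -0.17. Every mouse was then below culture for 1 of the 7, PKP4, and for 37% of the 8708. PERP, at a CPM of 108 in CTCs and 115 in culture, then had ratios of -0.63 to 0.18. DSP was then above culture in mouse 5546, at 0.39. JUP was above culture in all 5 mice on that scale, at 0.33 to 4.65, while it was below in 2 of them on the scale of normalized counts.

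**Figure D3:**
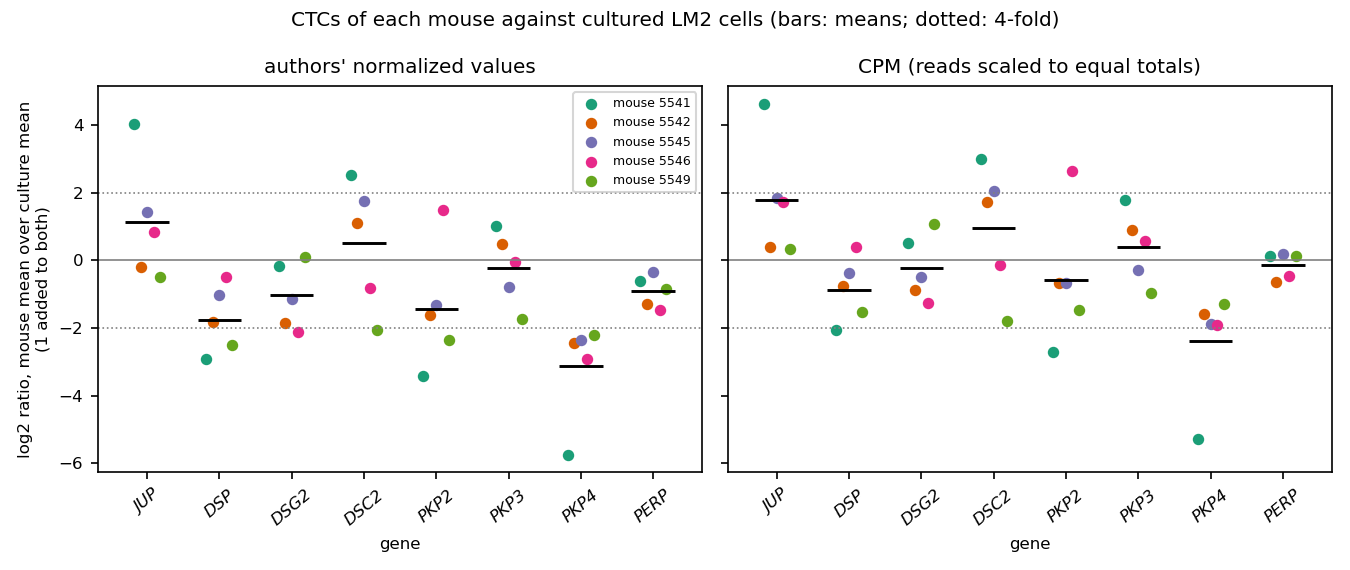
Log2 ratio of each mouse mean to the culture mean, with 1 added to both (y axis), for each gene (x axis), on normalized counts (left) and CPM (right). Points are the 5 mice, bars their means and dotted lines a 4-fold difference; PKP4 was below 0 in all 5 mice on both scales and beyond the lower line in all 5 on the left alone.

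In edgeR's quasi-likelihood test, with reads added up within each mouse and within the culture, none of the 8 genes passed the threshold in either direction. The lowest unadjusted p was that of JUP at 0.0876 with a log2 fold change of 3.58, which was 2.08 without mouse 5541, and the Benjamini-Hochberg adjusted p of each gene was 1.00. Across all genes, 0% of 13813 passed in the lower and 0% in the higher direction, with 241 genes at an unadjusted p under 0.05. A DESeq2 Wald test called 15 genes with 374 at an unadjusted p under 0.05, and none of the 15 was among the 8. The unadjusted p of JUP was 0.0432 in that test and 0.0162 in edgeR without a filter on low counts, with adjusted p of 1.00 and 0.677. After TMM scaling, 2 of the 8 genes had a log2 fold change below 0, DSP at -0.16 and PKP4 at -1.34, and the median of the 8 was 0.77 against 0.31 over all genes tested. The test assumes that the single culture sum varies as the mouse sums do.

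Over all CTCs the number of desmosome genes in a cell rose with the number of genes detected in it, and the correlation was weaker in some subsets. CTCs had reads of 1 to 8 of the 8 genes with a median of 5. All 8 were found in 3 CTCs, 5545-1, 5545-4 and 5546-c9, 7 genes in 7 CTCs and 6 in 7. At the other end, 5545-6, 5545-7 and 5549-6 had 1 gene each, PERP in the first pair and PKP3 in the last. The 6 cultured cells had 5, 5, 6, 8, 8 and 8. Over the 37 CTCs the number of desmosome genes had a Spearman's ρ of 0.70 with genes detected and 0.30 with reads on genes. The first was 0.84 in the 17 CTCs of mouse 5546 and 0.28 in the 10 of mouse 5545. Within mouse 5546 it was 0.74 in the 9 libraries of letter c and 0.33 in the 8 of letter s. Gene numbers of these letters did not overlap, so the 0.84 includes the difference between them. CTC 5545-7 had 7733 genes detected but no desmosome gene other than PERP.

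**Figure D4:**
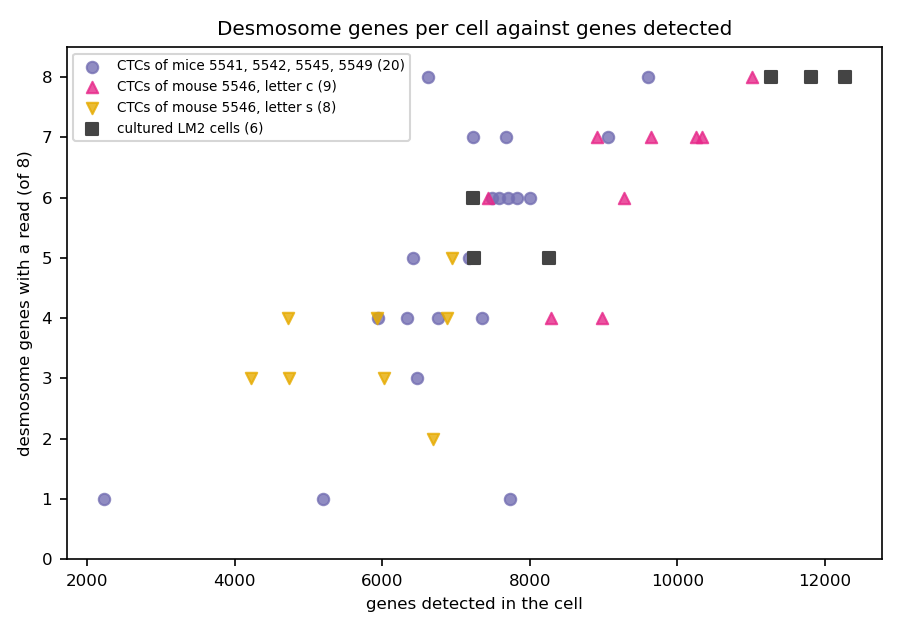
Number of the 8 desmosome genes with a read (y axis) against genes detected (x axis) in each of the 37 CTCs and 6 cultured LM2 cells. Libraries of mouse 5546 with letter c had more genes detected than those with s (7438 to 11010 against 4225 to 6942) and 4 to 8 desmosome genes against 2 to 5.

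A read of every layer of a desmosome, meaning JUP, DSP, at least 1 of DSG2 and DSC2, and at least 1 of PKP2 and PKP3, was found in 15 of 37 CTCs (40.5%, 24.8% to 57.9%) and 3 of 6 cultured cells (50%, 11.8% to 88.2%). These CTCs came from all 5 mice, with 1 of 2 in mouse 5541, 1 of 4 in 5542, 4 of 10 in 5545, 7 of 17 in 5546 and 2 of 4 in 5549. Thinned to equal reads, 14 CTCs and 3 cultured cells had every layer. JUP without DSP was seen in 9 CTCs, DSP without JUP in 3, both in 18 and neither in 7. JUP with no desmosomal cadherin was seen in 7 CTCs and a cadherin with no JUP in 6, so absence of a read fell on each layer in some cells.

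Within mouse 5546 the layers were split by library letter. All 7 CTCs with every layer carried the letter c, 7 of 9, against 0 of 8 with s. DSP had a read in 8 of 9 c and 2 of 8 s libraries with means of 42.1 and 3.27, DSG2 in 9 of 9 and 3 of 8 with means of 28.1 and 3.88, and DSC2 in 6 of 9 and 0 of 8. PERP had a read in 9 of 9 c and 7 of 8 s libraries with means of 76.9 and 35.5. JUP and PKP2 were each detected in 8 of 9 c and 5 of 8 s libraries, with means of 13.7 and 28.3 for JUP and 30.2 and 117 for PKP2. The order of those means turned without the 3 s libraries under 5000 genes, which left s at 6.98 for JUP and 20.5 for PKP2, below the c means. Over all 17 libraries the medians with c and s were 8.37 and 1.93 for JUP and 9.54 and 41.8 for PKP2. PKP3 and PKP4 were detected in 4 of 9 c and 3 of 8 s libraries each, with means of 2.42 and 14.9 for PKP3 and 5.11 and 7.44 for PKP4. Gene numbers did not overlap between the letters while reads did, at 831683 to 2041333 for c and 644520 to 1497708 for s. All 17 cells came from 1 mouse, so no test was made, and the part of gene number in the difference was not tested.

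Over all CTCs the 3 highest correlations among the 8 genes were those between DSG2, DSC2 and DSP, and within mice some other pairs were as high as the lowest of these. Of the 28 pairs, Spearman's ρ over 37 CTCs ranged from -0.23 to 0.56 with a median of 0.12, and 23 were above 0. The highest were DSG2 with DSC2 at 0.56, DSP with DSC2 at 0.49 and DSP with DSG2 at 0.47. In mouse 5545 these 3 pairs were at 0.82, 0.86 and 0.80 over 10 CTCs, and in mouse 5546 at 0.43, 0.73 and 0.49 over 17. JUP with PKP4 was at 0.81 in mouse 5545, and PERP was at 0.71 with DSG2, 0.64 with DSP and 0.52 with DSC2 in mouse 5546. No test of the difference between pairs was made. JUP had 0.03 with DSG2 and 0.27 with DSP, and PKP2 with PKP3 was the lowest pair. DSP itself had a ρ of 0.64 with genes detected, DSG2 0.35 and DSC2 0.25, against 0.17 for JUP. These correlations share libraries and their gene numbers, and in counts with many zeros they are given as descriptions.

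**Figure D5:**
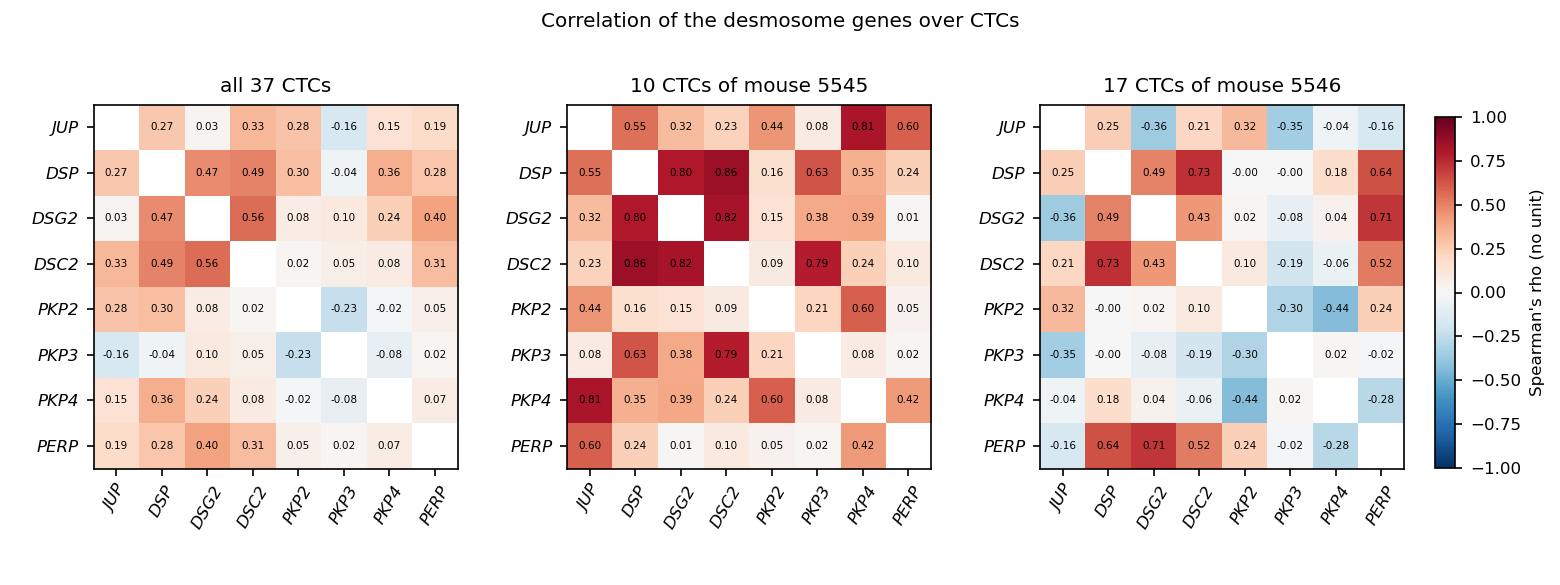
Spearman's ρ between each pair of the 8 genes over all 37 CTCs, the 10 of mouse 5545 and the 17 of mouse 5546 (color scale from -1 to 1). The block of DSP, DSG2 and DSC2 was above 0.4 in all 3 panels, while JUP with DSG2 changed sign, from 0.32 in mouse 5545 to -0.36 in mouse 5546.

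Genes most like each of the 6 more widely detected genes were sought among 7014 genes with a read in at least 50% of the CTCs. For JUP these were DDAH2 (ρ = 0.63), KDELR1 (0.63) and TTC39C (0.63). SAPCD2 (0.73), CRCP (0.71) and VKORC1L1 (0.69) led for DSP, and CEP295 (0.67), TOPBP1 (0.64) and PTPN9 (0.63) for DSG2. PKP2 had TTC32 (0.63), ALG1 (0.62) and CKAP5 (0.56), PKP4 had SWI5 (0.62), SFR1 (0.60) and VRK2 (0.56), and PERP had DYNLT3 (0.66), YIPF5 (0.64) and CHRNB1 (0.64). None of these leading genes is a desmosome gene. By rank among the 7014, DSP was 143rd for DSG2, DSG2 was 246th for DSP and PKP2 was 639th for JUP. Each leading gene was chosen as among the highest of the 7014 genes compared over the same 37 cells.

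Other junction genes gave context from lists chosen by function, and in each list edgeR called 0 genes. Among desmosomal genes beyond the 8, DSG3 had reads in 2 CTCs and no cultured cell. DSG1, DSG4, DSC1, DSC3 and PKP1 had no entry among the 25739 genes measured, which include no gene at 0 in every cell. None of 5 plakins met the rule of size, the highest being the linkers DST (241 ± 74.5 against 178 ± 62.9) and PLEC (140 ± 109 against 189 ± 84.7). None of 11 adherens junction genes did, with α-catenin CTNNA1 at 129 ± 41.4 against 336 ± 87.8 and vinculin VCL at 84.5 ± 40.7 against 122 ± 80.3. The classical cadherins CDH1 and CDH2 had a read in 1 CTC each. None of 11 tight and gap junction genes met it, with claudin CLDN7 at 29.7 ± 20.3 against 25.5 ± 22.4 and connexin GJB2 at 25.3 ± 18.5 against 22.9 ± 18.3. Of 8 measured intermediate filament genes, 1 was lower, the hair keratin KRT81, at 20.04 ± 22.1 against 860 ± 501, while VIM was at 8972 ± 2379 against 5549 ± 1120 and KRT18 at 895 ± 370 against 1894 ± 443. None of 9 measured regulators of desmosomes met the rule, the highest being the methyltransferase PRMT1 (96.8 ± 43.9 against 342 ± 130) and the repressor ZEB1 (32.4 ± 15.6 against 174 ± 164). The median log2 ratio was 0.26 for plakins, -0.03 for adherens junction, -0.44 for tight and gap junction, -0.77 for intermediate filaments and -1.93 for regulators, against -0.24 over all 25739 genes and -1.62 over the 8708 with a culture mean of at least 8. Among markers of other cells, HBB was higher and ITGB2 lower by the rule of size. The other measured leukocyte markers did not go with ITGB2. By edgeR the log2 fold change was -3.38 for ITGB2, 8.35 for PTPRC, 3.76 for CD14 and 3.96 for LYZ. CD14 and LYZ were above culture in some mice and below it in others, and the leukocyte list had a median log2 ratio of 0.85. Over the 37 CTCs the number of desmosome genes had a ρ of -0.25 with summed erythroid and -0.07 with summed leukocyte markers. Reads came from cells taken out of mouse blood and were aligned to the human genome, and the part of mouse RNA in these values was not tested.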

How the data were processed

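Expression of 37 CTCs and 6 cultured LM2 cells was measured by SMARTseq2. The authors aligned reads to GRCh38 with STAR 2.7.10a and GENCODE 38, counted unique reads per gene without strand, left out CTCs with under 50% unique mapping or over 50% mitochondrial reads (4 labelled CTCs are not analysed here), and deposited a signal, reads divided by a DESeq2 (1.42.1) size factor. Dividing by the smallest value of a cell gave whole numbers for 100% of them (tolerance 0.001), taken as reads. Symbols came from GENCODE 44 (25684 of 25739 identifiers). The mouse was the replicate, and nothing says that cultured cells came from separate cultures. The rule of size (4-fold, 1 added, larger mean at least 8) was applied to all genes, and edgeR 4.0.16 (R 4.3.3; TMM, filterByExpr, Benjamini-Hochberg at 0.05) to summed reads. Python 3.11.15, scipy 1.17.1, pandas 2.3.3 and numpy 2.4.6 were used. Steps were tested on simulated data. The 8 genes, the gene lists and the rules were chosen with earlier results of these data known. Named are the 8 genes, in each list those called and the 2 highest, the 3 most like each widely detected gene, and markers. PKP4's comparison with single cultured cells was chosen after its values were seen. Alternatives were other folds, pseudocounts, averages, detection limits, scalings and tests, thinning, and leaving out libraries.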

Additional observations from a re-analysis of the deposited data

Results flagged for a closer look

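In groups of 4 to 10 cells, single cells stood apart from the rest of their group by Dixon's 95% criterion in 9 of 35 groups tested, where chance gives about 1 in 20 for normally distributed values. These counts are skewed with many zeros, so that rate does not apply to them and the number of flags is given without a reading. In mouse 5542, cell 5542-2 had 36.0 of DSP against 0 in the other 3, 77.9 of DSG2 against 3.78 in the next, and 27.7 of PKP2 against 2.12. Cell 5542-4 of that mouse had 45.8 of PKP3 against 4.78. In mouse 5545, 5545-1 had 177 of JUP against 32.9, and 5545-4, the CTC with the fewest reads, had 87.0 of DSP against 30.9. In mouse 5549, 5549-5 had 29.3 of JUP against 1.12 and 15.8 of PKP2 against 0.561. Among cultured cells, LM-1 had 29.8 of PKP3 against 8.78. These are normalized counts of cells, not of replicates.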

How the results depend on the processing

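PKP4 was 1 gene of 8 lower by the rule of size. The count was 0 with a pseudocount of 8, after thinning to 469614 reads, and with CPM (added after the data were seen). Thinning and CPM both replaced the size factors by equal totals. The count was 0 to 1 when single mice or cultured cells were left out, 0 being without LM-10. It was also 1 under the 5 other settings. Over all 25739 genes 1.89% were lower in the main setting, 8.93% at 2-fold and 5.27% with medians. The share was 0.559% with a pseudocount of 8, 0.478% thinned, 0.532% in CPM and 2.03% without LM-10. The counts of 1 and 0 moved beside these shares and are not a measure of how firm the PKP4 difference is. In the higher direction 0 of the 8 genes met the rule under each alternative, and 0.00389% to 0.0389% of all genes did. The edgeR count was 0 in both directions under all 16 alternatives, where at most 0.135% of all genes tested were called in a direction. The log2 fold change of DSP by edgeR turned from -0.16 to 0.13 without libraries of letter s, and ranged from -0.71 to 0.29 with a mouse or cultured cell left out, above 0 without mouse 5541, LM-1 or LM-P3. That of PKP2 turned from 0.91 to -0.024 without CTCs under 5000 genes (added later) and ranged from -0.60, without mouse 5546, to 1.21 with a mouse or cultured cell left out. The cause was not tested. The median of 5 desmosome genes per CTC was 3 at a value of at least 8, 4 after thinning, 6 without letter s and 6 without CTCs under 5000 genes, and 5 to 5.5 with each mouse left out. The 15 CTCs with every layer became 6 at a value of at least 8, a limit added later. No paired analysis was possible because numbers in the labels name cells picked from different mice. Without cell 5541-5 the mean of JUP fell from 52.8 to 15.3, and without mouse 5546 that of PKP2 fell from 18.7 to 5.59. Means by letter without s libraries under 5000 genes were chosen after seeing the data. The log2 fold change of JUP by edgeR was 2.08 to 3.99 with a mouse or cultured cell left out, the lowest without mouse 5541. The single culture and the 2 to 17 CTCs per mouse limit the comparison.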
